A study of Drosophila melanogaster with 4 samples.

Results

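HP4 is a chromatin protein of Drosophila melanogaster that is named for heterochromatin and known as a binding partner of HP1, the protein that packs repeat-rich DNA around centromeres, at telomeres and over much of chromosome 4. The regions described here are those on the X chromosome: 413 of the 4366 regions in the authors' combined list of HP4-enriched regions, taken by sequence name alone and followed from the telomere (position 1) to the centromere-proximal end of the 22.4 Mb sequence (FlyBase release 5). The HP4 ChIP libraries (replicates 1 and 2) and their input libraries (replicates 1 and 2, chromatin that was not immunoprecipitated) came from wild-type Oregon-R embryos of 14 to 16 h, whole embryos fixed with formaldehyde, and the antibody was Q4072, whose target is HP4. The labels name no sex, no tissue and no separate collections for the replicates, so their spread may be technical alone. The list of replicate 1 held 101 X regions out of 2703, and that of replicate 2 held 110 out of 2674.

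X differs from the autosomes in that males carry a single copy, whose genes are known to be upregulated by the dosage compensation complex. Its gene-rich euchromatin runs over most of the arm, and the pericentric end, toward the centromere, passes into heterochromatin that is known to hold flamenco, a source of small RNAs that silence transposons. At the opposite end, fly telomeres are built of retrotransposons in place of telomerase repeats and are known to be capped with the help of HP1. The deposited values are the bounds of each region and 1 score per region, the authors' own, whose scale is not stated. Read depths are unknown from these lists. No chance test over regions was made, and 2 replicates cannot give a test between conditions, so the comparisons here rest on the spread between the replicates (mean ± SD, n = 2) or on counting intervals.

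HP4 regions covered 3.50% of X in the combined list, 1.21% in replicate 1 and 1.33% in replicate 2. The covered length was 786 kb in the combined list, 272 kb in replicate 1 and 298 kb in replicate 2. Most members were short. In the combined list the median X region was 1299 bp wide and 62.2% of the regions were under 1500 bp, the narrowest being 1001 bp and the widest 21968 bp. In the replicate lists, whose narrowest X regions were 1305 and 1306 bp, the medians were 1895 and 1894.5 bp. The middle 50% of the combined X scores lay between 0.55 and 0.70, with a median of 0.62 and a top value of 3.53. Of the 413 regions, 64 (15.5%, Wilson 95% interval 12.3% to 19.3%) had a score at or above the median of the whole list, 0.82, a level that 50% of all regions reach by construction. Of those 64, 28 lay in the centromere-proximal 1 Mb.

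**Figure D1:**
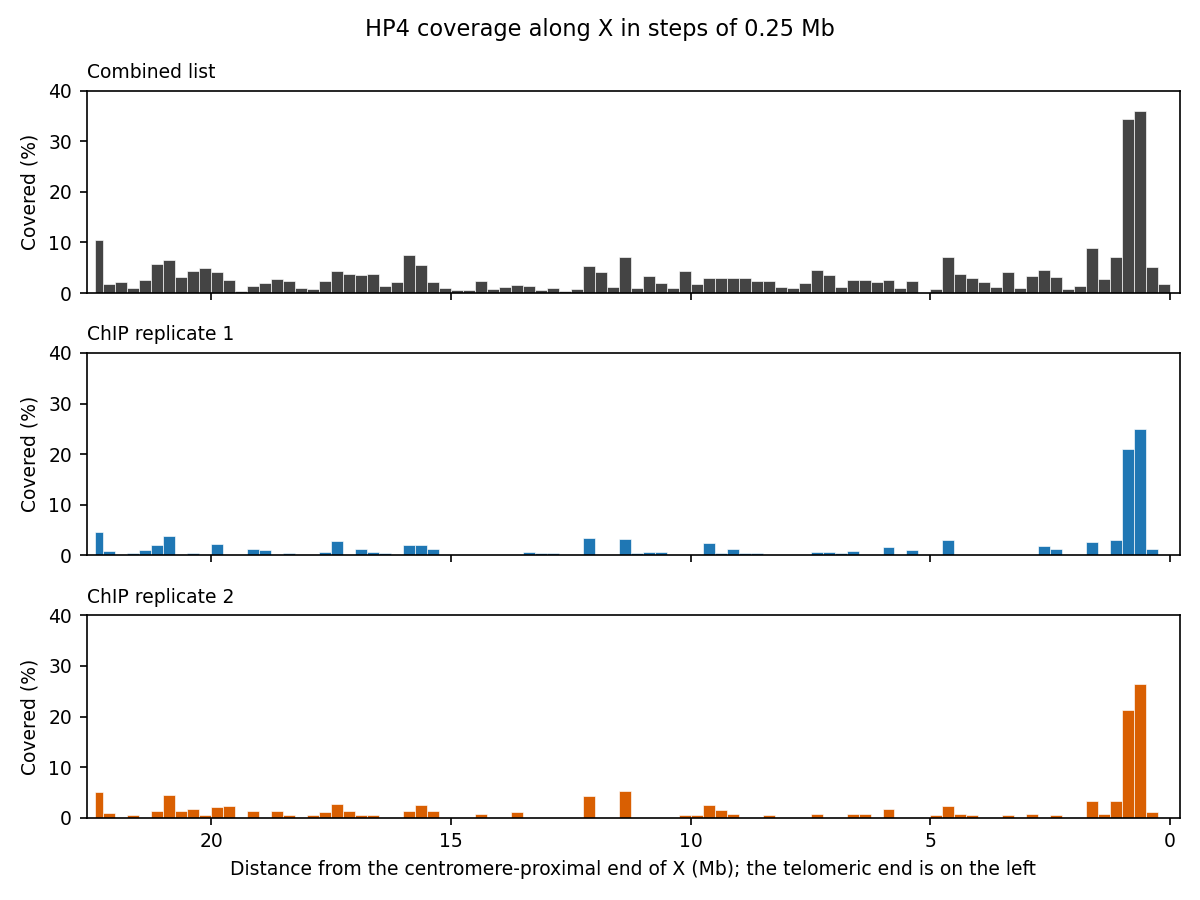
Percentage of each 0.25 Mb step of X covered by HP4 regions (vertical axis, %) against distance from the centromere-proximal end (horizontal axis, Mb), in the combined list (top), replicate 1 (middle) and replicate 2 (bottom). The steps between 0.5 and 1 Mb from the proximal end stand out in all lists, at 35.9% and 34.5% in the combined list, and low coverage runs along the rest of the arm.

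The wide HP4 regions of X lay mostly near the centromere-proximal end of the arm sequence, but not at that end itself. Of the 5 combined-list regions over 10 kb wide, 4 were in the centromere-proximal 1 Mb. The proximal 1 Mb, 4.46% of the length of X, held 24.6% of the X bases covered in the combined list, 43.2% in replicate 1 and 41.0% in replicate 2. Its coverage was 19.4% in the combined list, 11.8% in replicate 1 and 12.2% in replicate 2, while the rest of the arm had 2.76%, 0.722% and 0.819% in the same lists. The ratio of proximal to remaining coverage was 7.01 in the combined list and 15.6 ± 0.986 over the replicates. With a window of 0.5 Mb it turned to 0.468 over the replicates and was 1.01 in the combined list, where the last 0.5 Mb was covered over 3.53% and the rest of X over 3.50%. Scores were also higher in the proximal 1 Mb, where the regions had median scores of 0.93, 1.21 and 1.21 in the combined list and replicates 1 and 2, and those on the rest of the arm 0.61, 0.90 and 0.81.

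Within the proximal 1 Mb the HP4 coverage lay mostly in 0.3 Mb. The stretch from 21522828 to 21822827, between 0.6 and 0.9 Mb from the end and 1.34% of the length of X, was covered over 51.4% in the combined list, 36.8% in replicate 1 and 36.7% in replicate 2. It carried 19.6%, 40.5% and 37.0% of all covered X bases in those lists. The last 0.6 Mb before the end of the sequence was covered over 5.76% in the combined list, 1.23% in replicate 1 and 1.72% in replicate 2. Its terminal 0.3 Mb held 4 combined-list regions, none of them overlapped by a replicate, and no region of either replicate. Each replicate list ended on the arm at nearly the same place, with a 1520 bp region from 22101983 to 22103502 (score 0.78) in replicate 1 and a 1457 bp region from 22102084 to 22103540 (0.61) in replicate 2. The last combined-list region ran from 22419770 to 22420782 and scored 0.88.

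When combined-list regions under 10 kb apart were linked, most of the dense stretch fell into 2 blocks with an empty interval between them. The distal block spanned 109 kb from 21578003 to 21687501, with 13 combined-list regions over 75.5% of its length, and was covered over 51.6% by replicate 1 and 52.0% by replicate 2. The proximal block spanned 82.4 kb from 21758757 to 21841112, with 11 combined-list regions over 88.7% of its length, and was covered over 58.4% by replicate 1 and 62.3% by replicate 2. The 71.3 kb between the blocks held no region in any of the 3 lists. Linked alone, replicate 1 regions formed 1 chain on each side of it, of 12 and 11 regions. In replicate 2 the distal side split into chains of 4 and 8 regions. Its proximal side gave a chain of 11 and a single region. Elsewhere on X the longest combined-list chain had 8 regions over 37.8 kb, from 6446397 to 6484198, where coverage was 34.3%. Linking the combined list gave 288 groups in all, of which 225 were single regions.

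**Figure D2:**
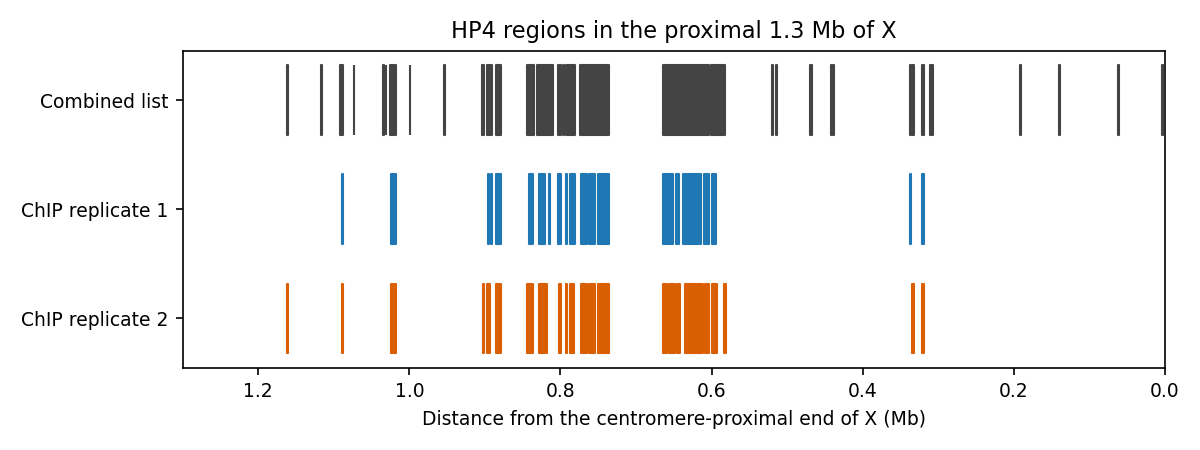
HP4 regions in the last 1.3 Mb of X, drawn to scale as bars against distance from the centromere-proximal end (Mb), in the combined list (top row), replicate 1 (middle row) and replicate 2 (bottom row). The 71.3 kb empty interval between the 2 blocks of the combined list is empty in each list. The end of the sequence is nearly empty in the replicate lists, with 2 regions each in the last 0.5 Mb, and holds 12 regions in the combined list.

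The 3 highest-scoring X regions found by both replicates lay toward this end. The top one, 5630 bp from 21758757 to 21764386 at the distal edge of the proximal block, scored 2.58 in the combined list. Its best-overlapping partners scored 2.84 in replicate 1 and 2.36 in replicate 2. The region from 21581735 to 21586106 scored 2.40, with 2.42 in replicate 1 and 2.38 in replicate 2, and its edges differed between the replicates by 21 and 12 bp. The third, 2653 bp from 21403020 to 21405672, lay 1.02 Mb from the end and scored 2.23, with 2.48 and 2.00 in the replicates. Replicate 1 gave the higher score for each of these 3. The widest X region, 22.0 kb from 21787426 to 21809393, scored 1.48, with 1.98 and 1.46 in the replicates, and was covered over 98.3% by replicate 2. Next in width was a 20.5 kb region from 21648691 to 21669167 (score 1.00) that held 5 separate replicate 1 regions and 4 of replicate 2, which covered 70.9% and 79.9% of it. A 17.0 kb region from 21765592 to 21782558 (1.46) held 3 and 5. A 15.1 kb region from 21672353 to 21687501 (1.16) matched 1 region in each replicate, with scores of 1.25 and 1.11. Also in the top 10 by score were the regions from 21619561 to 21623825 (1.33) and from 21813301 to 21819829 (1.30).

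At the other end of X, HP4 regions reached to within a few kilobases of the telomeric end of the sequence. The first combined-list region ran from 2010 to 18585, 16.6 kb, and was the widest X region outside the proximal 1 Mb, with a score of 0.96. A 1665 bp region followed from 20746 to 22410 (0.49). Replicate 1 had 4 regions there, the first from 3891 to 5232 (score 1.24), then from 5882 to 9676 (0.97), from 16334 to 17645 (1.35) and from 20885 to 22297 (0.80). Replicate 2 also had 4, from 3786 to 5308 (1.23), from 5677 to 9108 (0.96), from 13848 to 15565 (1.63) and from 15609 to 17623 (1.22). The replicates overlapped in 3 of these places, and each list had 1 region with no counterpart in the other.

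The other large arms showed no such end. The telomeric 25 kb of X was covered over 73.0% in the combined list and 33.1% ± 2.34 over the replicates (31.4% in replicate 1 and 34.8% in replicate 2). The telomeric 25 kb of 2L, 2R, 3L and 3R held no region in either replicate, and the combined list had a single region there, on 2L, covering 4.37%. On X the first replicate region began 3.89 and 3.79 kb from the end of the sequence, whereas on 3L it began at 51.9 and 52.3 kb, on 2R at 325 and 401 kb, on 2L at 480 and 739 kb and on 3R at 992 kb in both replicates. With a window of 100 kb the contrast with 3L disappeared: coverage on X was 7.86% in replicate 1 and 8.69% in replicate 2, and on 3L it was 8.61% and 9.34%. How much repeated telomeric sequence the assembly holds at each end, and how reads were placed in it, was not tested.

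**Figure D3:**
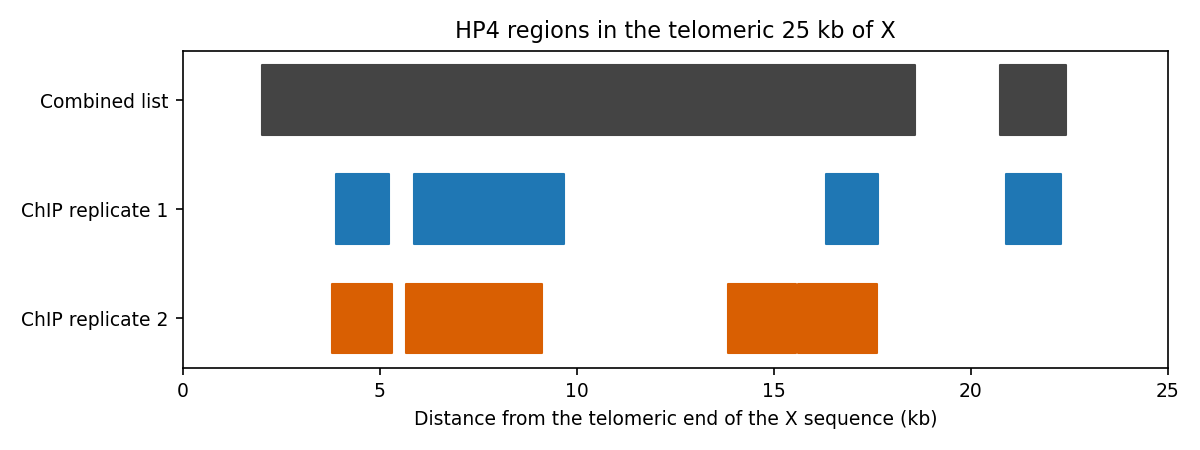
HP4 regions in the first 25 kb of the X sequence, drawn to scale as bars against distance from the telomeric end (kb), in the combined list (top row), replicate 1 (middle row) and replicate 2 (bottom row). A single 16.6 kb combined-list region spans shorter regions of both replicates.

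Between the ends, HP4 regions were scattered along the whole arm without long empty stretches in the combined list. Over the 21 full 1 Mb steps beyond the proximal 1 Mb, the combined list had between 7 and 29 regions per step with a median of 17. Replicate 1 had between 0 and 7 and replicate 2 between 1 and 10, each with a median of 3. The median gap between neighbouring regions was 28.6 kb in the combined list, 95.1 kb in replicate 1 and 63.3 kb in replicate 2. The longest gap in the combined list was 418 kb, from 20235927 to 20654395, close to the pericentric domain. In replicate 1 it was 1855 kb, from 7081057 to 8935671, and in replicate 2 it was 1375 kb, from 8826256 to 10201079. The sparsest full step of 2 Mb fell in the same part of the arm: between 8 and 10 Mb from the telomere the combined list had 15 regions, and none was overlapped by both replicates. Between 18 and 20 Mb it had 45 regions, of which again none was overlapped by both replicates and 39 by neither. Across the 20 distal steps of 1 Mb, those over 3 Mb from the proximal end with the last one incomplete, the covered percentages of replicates 1 and 2 gave Pearson r = 0.89 and Spearman rho = 0.90, a description across steps that share their libraries.

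Outside the pericentric domain few short steps were well covered in both replicates. Of the 86 steps of 0.25 Mb beyond the proximal 1 Mb, 11 were over 2% covered in both replicates and 25 were empty in both, while 1 was empty in the combined list. A single wide region could suffice for this. The step from 4922828 to 5172827 had 1 region in each replicate, with coverage of 2.79% in replicate 1 and 2.82% in replicate 2. Apart from the step at the telomere, the most covered were those from 10922828 to 11172827 (3.28% in replicate 1 and 5.23% in replicate 2), from 1422828 to 1672827 (3.90% and 4.43%) and from 10172828 to 10422827 (3.55% and 4.31%).

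The best-scoring distal region found by both replicates was 7676 bp wide, from 1521799 to 1529474. It scored 1.79 in the combined list, 1.90 in replicate 1 and 1.75 in replicate 2. Second was a 4240 bp region from 12825784 to 12830023, at 1.49, 1.46 and 1.51, whose replicate edges differed by 8 and 13 bp. A 4024 bp region from 2505733 to 2509756 scored 1.32, 1.27 and 1.37 in the same lists. The replicate scores of these 3 regions were close, and the replicate ends of the first differed by 780 bp. Regions from 10243161 to 10250698 (combined score 1.24), from 6917439 to 6924642 (1.20) and from 4990212 to 4997689 (1.17) were the best of their 2 Mb steps. They were followed by narrower ones from 16576977 to 16579061 (1.07) and from 14930105 to 14932624 (1.01). The last, incomplete step, which is not in the distal part, held 1 region found by both replicates. It ran over 2135 bp from 22101643 to 22103777 and scored 0.68. A region of that step not found by both, from 22085233 to 22087135, scored 1.32.

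Widths of the 27 distal regions found by both replicates, meaning those over 3 Mb from the proximal end, were uneven. There were 11 under 3 kb, 10 between 3 and 5.1 kb, none between 5.1 and 7 kb, 5 between 7 and 8 kb, and the 16.6 kb telomeric region. The 5 regions of 7 to 8 kb were spread over the telomere-side part of the arm, starting at 1521799, 4990212, 6917439, 10243161 and 11088355. In those from 4990212, from 6917439 and from 10243161, each replicate had a single region, and the replicate widths were 6964 and 7049 bp, 6984 and 7056 bp, and 7215 and 7330 bp. The other 2 were less alike. The region from 1521799 had 1 region in each replicate, of 7457 and 6820 bp. That from 11088355 held 2 regions of replicate 1 and 1 of replicate 2, which covered 58.8% and 58.6% of it. This grouping by width was noticed after the values were seen. Sequence and genes of release 5 were not used here, so what these regions contain was not examined.

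A smaller share of replicate regions recurred on X than over all sequences. On X 62.4% of the 101 replicate 1 regions had a partner in replicate 2 (Wilson 95% interval 52.6% to 71.2%), where 82.8% of all replicate 1 regions did. For replicate 2 it was 51.8% of 110 (42.6% to 60.9%), where 79.7% of all its regions did. The chance of an overlap rises with coverage, and X was covered less than most sequences, so these shares do not rank X by agreement. Within X, 86.2% and 73.3% of the proximal regions of replicates 1 and 2 had a partner, and 52.8% and 43.8% of those on the rest of the arm. The Jaccard index of covered bases was 0.716 in the proximal 1 Mb, where 11.8% and 12.2% was covered, and 0.381 on the rest of the arm. Regions with a partner were wider, with medians of 2231 bp in replicate 1 and 2711 bp in replicate 2, against 1415 and 1551 bp for those without.

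Matched regions had similar scores. Over the 63 replicate 1 regions with a partner the 2 scores gave Spearman rho = 0.69 and Pearson r = 0.85, a description across regions of the same pair of libraries. Their median scores were 1.06 in replicate 1 and 1.09 in replicate 2, and replicate 1 was higher in 37 of 63 pairs. A replicate 2 region that was the partner of several replicate 1 regions counts more than once in these values. Of the 63 pairs, 45 were one-to-one. High scores also occurred without a partner. In replicate 2 the highest was 2.48 for a 2553 bp region from 21772341 to 21774893, followed by 1.64 from 21578067 to 21580074 and 1.63 from 13848 to 15565. In replicate 1 they were 1.94 from 22085065 to 22086499, 1.85 from 21530338 to 21532250 and 1.40 from 19690605 to 19691980. The last of these was in no combined-list region. In all, 10 of the 101 X regions of replicate 1 and 7 of the 110 of replicate 2 lay wholly outside the combined list. All of them were on the arm beyond the proximal 1 Mb. The same count over all sequences is not given here, so these counts do not set X apart.

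Most of the 413 combined-list regions were in neither replicate list. Both replicates overlapped 49 of them (11.9%, Wilson 95% interval 9.09% to 15.3%), against 37.6% of all combined-list regions. A further 67 (16.2%) were overlapped by a single replicate, against 17.9% of all regions. Neither replicate overlapped 297 (71.9%, 67.4% to 76.0%), against 44.5% of all regions. Among the other large arms the share found by neither was 78.5% on 3R, 63.6% on 2L, 59.1% on 2R and 55.2% on 3L. The share found by both was 8.46%, 23.2%, 28.4% and 29.3% on the same arms. X thus lay between 3R and the other 3 arms. As for partners, the chance of an overlap rises with coverage, so these shares do not rank X. The 49 regions found by both made up 36.4% of the covered X bases, and the 297 found by neither 48.7%. In the proximal 1 Mb 17 of 45 regions were found by both, 37.8%, and on the rest of X 32 of 368, 8.70%. Among the 64 X regions scoring at or above the median of all regions, 56.3% were found by both and 32.8% by neither. The shares of all combined-list regions at that score level are not given here, so these do not set X apart.

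These classes differed in width. The 49 regions found by both replicates had medians of 4240 bp for width and 1.00 for score, and the narrowest was 2068 bp. The 67 found by 1 replicate had medians of 1664 bp and 0.59. The 297 found by neither had medians of 1186 bp and 0.61, and 79.5% of them were under 1500 bp, whereas none of the 49 was. The replicate lists hold no X region under 1305 bp while the combined list starts at 1001 bp, and the part of this in the width difference was not tested. The score of a wide region is 1 value for its whole length, so widths and scores are not independent.

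**Figure D4:**
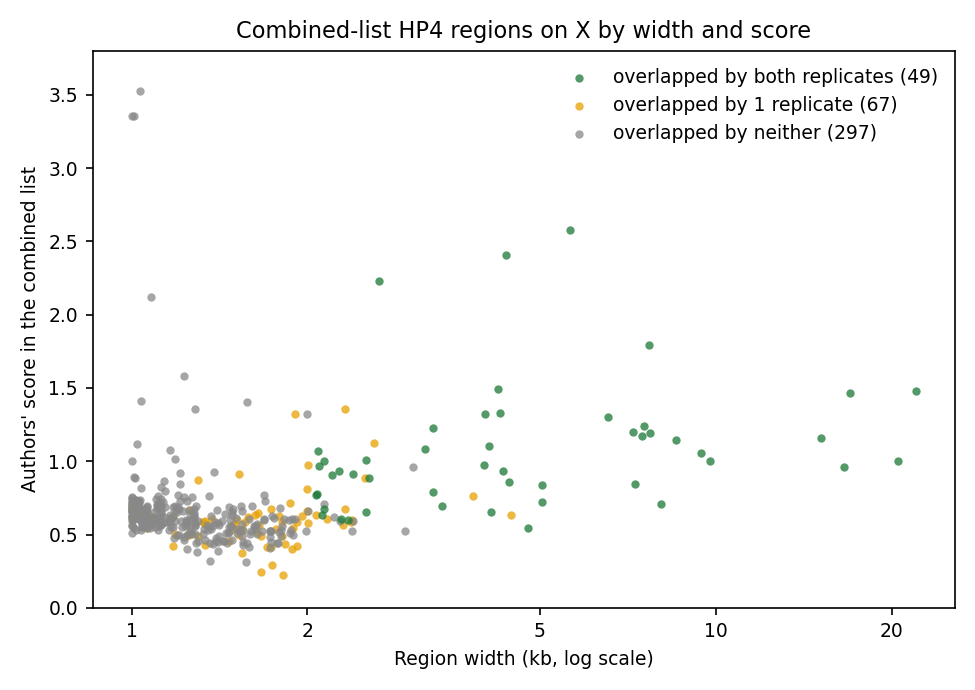
Authors' score (vertical axis) against width (horizontal axis, kb, log scale) of the 413 combined-list HP4 regions on X, with 1 point per region coloured by whether both, 1 or neither of the replicate lists overlapped it. The 49 regions found by both are all at least 2068 bp wide, and the 3 highest scores belong to narrow regions found by neither.

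The highest scores on X belonged to narrow regions that neither replicate list contained. They were a 1035 bp region from 19842093 to 19843127 with a score of 3.53, and regions of 1001 bp from 1462528 to 1463528 and 1010 bp from 21586727 to 21587736 that had the same score, 3.36. Next were 1080 bp from 21626825 to 21627904 (2.12) and 1231 bp from 19604208 to 19605438 (1.58). Of the 13 regions found by neither with a score of at least 1, 11 were under 1500 bp wide. Of the 25 found by both with such a score, none was, and 12 lay in the proximal 1 Mb. Equal scores (tolerance 1e-09) recurred within X for 92 of the 413 combined-list regions, 10 of the 101 in replicate 1 and 4 of the 110 in replicate 2. These are 22.3%, 9.90% and 3.64%. On the 4 autosomal arms, counted together as a larger set, the shares were 35.5%, 12.2% and 6.06%.

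Where both replicates overlapped a combined-list region, the lists placed it similarly. The replicate regions shared at least 1 base in 48 of the 49; the exception was the 9778 bp region from 21603801 to 21613578. A single region of each replicate lay in 38 of the 49, and there the replicates differed by a median of 126 bp at the start and 123 bp at the end. The combined score lay between the scores of the best-overlapping replicate regions in 31 of the 49 and below both in 18, and was above both in none. Replicates 1 and 2 covered a median of 85.2% and 79.9% of these regions.

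More than 3 Mb away from the centromere-proximal ends, X carried more HP4 regions than the autosomal arms in each of the 3 lists. In this distal part X had 0.736% ± 0.0752 of its length covered over the replicates. The value for 2L, 2R, 3L and 3R together was 0.437% ± 0.0436. The ratio was 1.68 ± 0.00430, and 2.68 among the upper 50% of each list by score. Its SD is small because both coverages rose alike from replicate 1 to replicate 2, and is no measure of precision. For the ratio of X to single arms the SD ran from 0.0378 (2R) to 0.146 (3R). The order depended on where the distal part began: beyond 1 Mb the ratio turned to 0.662 for coverage and 0.984 for regions per Mb over the replicates, and 2R had more regions per Mb than X in each list. In that wider part X had 0.771% ± 0.0689 of its length covered, and 2L had 0.687% ± 0.0273, 2R 2.10% ± 0.00182, 3L 1.68% ± 0.124 and 3R 0.397% ± 0.0548. Beyond 3 Mb, the single arm closest to X was 2L at 0.511% ± 0.00517. Next were 3L at 0.463% ± 0.0643, 2R at 0.425% ± 0.0342 and 3R at 0.365% ± 0.0634. There replicate 1 gave X 0.683% and the highest other arm 0.507%. Replicate 2 gave X 0.789% and the highest other arm 0.514%, so beyond 3 Mb the X values did not overlap those of the other arms. In the combined list X had 2.64% and the other arms between 1.54% (3R) and 2.05% (2R). Counted as regions per Mb, X had 3.09 in replicate 1, 3.50 in replicate 2 and 16.5 in the combined list, and the 4 autosomal arms together had 2.10, 2.25 and 12.0. Beyond 3 Mb the replicates thus differed in X coverage by less than X differed from any other arm. However, 2 replicates of 1 group allow no test of this difference.

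Proximally the order was the reverse for most arms. The proximal 1 Mb of X, at 12.0% ± 0.315 over the replicates, had 0.282 ± 0.00695 of the coverage of the proximal 1 Mb of 2L, 0.192 ± 0.00180 of that of 2R and 0.205 ± 0.00285 of that of 3L, but 13.1 ± 1.02 times that of 3R. XHet, the 204 kb of heterochromatic sequence assigned to X outside the arm, was covered over 30.6% in the combined list, 23.9% in replicate 1 and 24.4% in replicate 2.

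The distal X regions also scored higher. Their median score was 0.610 in the combined list, where those of the other arms lay between 0.525 and 0.535. In replicate 1 it was 0.90 on X and between 0.73 and 0.76 on the other arms, and in replicate 2 it was 0.83 on X and between 0.67 and 0.78 on the others. Widths did not show the same order: the median was 1265 bp on X and between 1192 and 1220.5 bp on the other arms in the combined list, and 1714 ± 97.2 bp on X and between 1723.5 and 1831 bp on the others over the replicates. The labels give no sex for the embryos, and the number of X copies in the chromatin and the reads behind each score were not used here, so their part in the X values was not tested.

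The distal X surplus was present in each class of the combined list. By coverage the ratio of X to the 4 autosomal arms together was 1.84 for regions found by both replicates and 1.41 for those found by neither, and by regions per Mb it was 1.23 and 1.35. X had 12.6 regions per Mb found by neither replicate and the autosomal arms together 9.28, with 8.59 on 3R and 11.6 on 2R as the lowest and highest. Of regions found by both replicates, X had 1.39 per Mb and the other arms together 1.13, with 2L at 1.35. The share found by both was 8.41% of 321 distal regions on X (Wilson 95% interval 5.84% to 12.0%) and 9.42% of 1019 on the other arms (7.78% to 11.4%), with intervals that overlap. The distal regions found by both were wider on X, with a median of 3403 bp, than on the other arms together, with 2145 bp. Their median score was 0.96 on X and 0.96 on 2L, and lay between 0.67 and 0.78 on 2R, 3L and 3R.

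**Figure D5:**
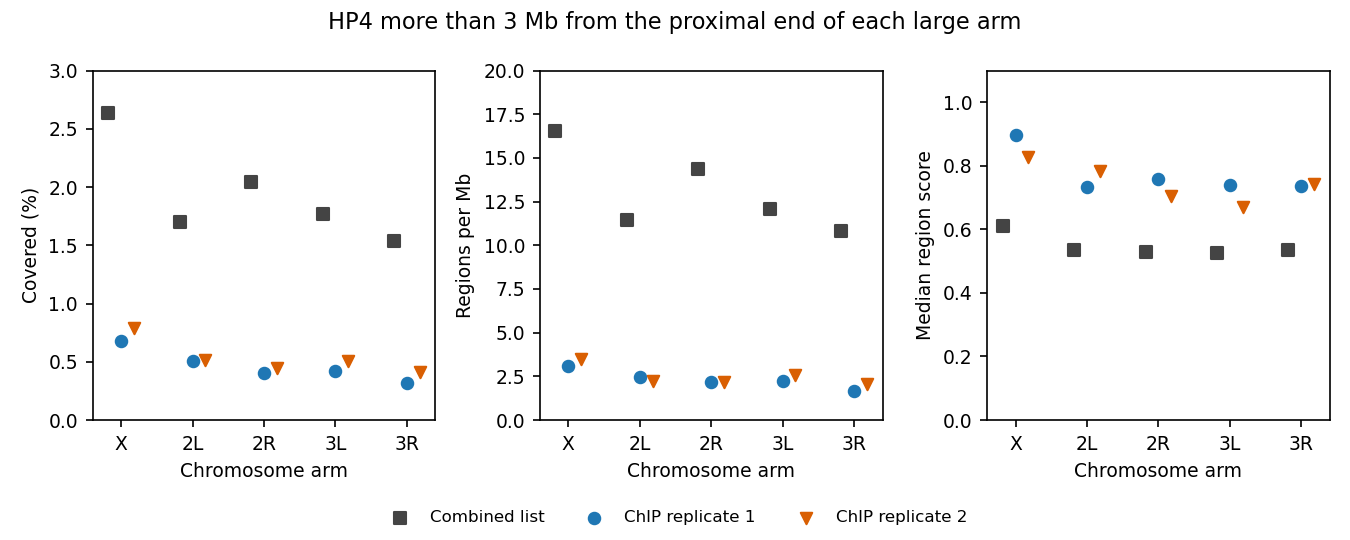
Coverage (left, %), regions per Mb (middle) and median region score (right) in the distal parts, over 3 Mb from the proximal end, of X, 2L, 2R, 3L and 3R, with 1 point per list: the combined list (squares), replicate 1 (circles) and replicate 2 (triangles). X has the highest value in each list in all 3 panels.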

How the data were processed

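HP4 ChIP-seq lists of 14 to 16 h embryos were read as deposited, in FlyBase release 5 coordinates per the file headers. Per the submitters' processing notes, alignment used Bowtie 0.12.7. How regions were called and how the replicate lists were combined is not given in the sources used here. For each region the authors deposited 1 score of unstated scale, used here to describe and rank regions within a list. Of the 4 libraries, no value of the 2 inputs was used.

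X regions were taken by sequence name. Coverage is bases in regions over sequence length, overlap is at least 1 shared bp, and counts in windows use region midpoints. The proximal window was 1 Mb, distal meant over 3 Mb from the proximal end, and regions under 10 kb apart were linked. Named regions are the 10 best-scoring and 5 widest found by both replicates, and the best such region of each 2 Mb step that held one. Also named are the 5 best found by neither, the 3 best unpartnered of each replicate, and the first and last of each list. Others were chosen after their values were seen. Members and rules were chosen with earlier results of these data known. Wilson intervals cover counting error only. The gene table at hand is of release 6, so regions were not assigned to genes and no sequence was read. Scripts (Python 3.11.15, numpy 2.4.6, scipy 1.17.1, pandas 2.3.3, matplotlib 3.10.9) were tested on simulated lists.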

Additional observations from a re-analysis of the deposited data

How the results depend on the processing

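No paired analysis was possible because the input libraries, which share replicate numbers with the ChIP libraries, gave no value here. The count of X regions was 386 with regions under 1 kb apart merged and 64 in the upper 50% by score. X coverage was 0.460% in the upper 50% by score and 3.50% in the combined list. The share found by both replicates was 56.3% in the upper 50% by score and 8.70% beyond the proximal 1 Mb. Among regions of at least 1.5 kb it was 31.4%. The share found by neither was 32.8% in the upper 50% by score and 39.1% among regions of at least 1.5 kb. The shares of all combined-list regions under these limits are not given here, so these do not set X apart. The proximal ratio turned to 0.468 with a 0.5 Mb window (1.01 in the combined list) and was 9.38 with 2 Mb, 8.33 for regions per Mb and 7.01 in the combined list. The distal X ratio turned to 0.662 beyond 1 Mb, and to 0.984 there for regions per Mb. It was above 1 with the other settings run: 1.37 beyond 2 Mb, 1.76 beyond 5 Mb, 1.51 for regions per Mb, 1.51 in the combined list, 2.68 in the upper 50% by score, 1.58 without the telomeric 25 kb, 1.44 against 2L and 2.03 against 3R. The Jaccard index was 0.444 in the upper 50% by score, and the mean share of regions with a partner was 0.571. Spearman rho was 0.717 for one-to-one partners and 0.755 for reciprocal overlap of 50%. Without replicate 1 or replicate 2 in turn, X coverage ran from 1.21% to 1.33%, the proximal ratio from 14.9 to 16.3 and the distal ratio from 1.679 to 1.685. Of 19 named regions with scores in both replicates, the replicate mean lay within 1 SD of the combined score in 14. That SD is of the 2 replicate scores and is wider where they differ more, so this count does not measure agreement. The distal part beyond 1 Mb, the 0.5 Mb window in the combined list, the shares beyond the proximal 1 Mb, the 1.5 kb limit, the telomeric exclusion, the single-arm ratios and the replicate mean scores were chosen after seeing the data. The cause of these changes was not tested except where stated. Unknown depth limits how far short regions can be told from counting noise.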
